A study of Homo sapiens with 7 samples.

Results

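The 8 human genes for the subunits of the stalks of the V1 sector of the vacuolar proton pump (V-ATPase) were examined in colon carcinoma cells treated with the pump inhibitor bafilomycin A1. They are ATP6V1C1 and ATP6V1C2 (subunit C), ATP6V1E1 and ATP6V1E2 (subunit E), ATP6V1G1, ATP6V1G2 and ATP6V1G3 (subunit G), and ATP6V1H (subunit H). Members were taken by gene name from the non-control spots of the arrays. This gave 8 of 36337 gene names and 10 of 50599 probes, each printed as 1 spot per array. ATP6V1C1 and ATP6V1E2 have 2 probes each and the others 1.

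The cells were HCT116, a near-diploid human colon cancer line, in a derivative that expresses histone H2B fused to GFP. All cultures grew in DMEM with 10% serum at 37 °C and 5% CO2 per the labels (the methods give less serum), and the treated ones received 10 nM bafilomycin A1 for 30 h. The labels list 4 treated and 3 untreated samples of this line. The untreated samples were not analysed here, so no effect of the drug was computed and each value below is a level in treated cells. Total RNA (100 ng per labelling) was hybridised to 1-colour (Cy3) Agilent arrays, 1 array per replicate. The labels do not say that replicates came from separate cultures. The methods state in general that statistically evaluated experiments used independent biological replicates, without naming these arrays, so the spread between them may be technical. With 4 arrays, the precision of a mean is limited by their number.

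The V-ATPase pumps protons into lysosomes, endosomes and secretory vesicles. Its cytosolic V1 sector hydrolyses ATP, and its membrane V0 sector, to which bafilomycin A1 binds, carries the protons. Subunits E and G form the peripheral stalks that hold the V1 head in place, subunit C joins these stalks to V0, and subunit H bridges them and silences ATP hydrolysis in V1 that has left V0. The paralogs 1 of C, E and G are found in most tissues. C2 is known from kidney, lung and epidermis, E2 from testis, G2 from brain and G3 from kidney.

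Each array probe is a 60-base oligonucleotide, and its letters decide which transcript a value belongs to. The last 30 bases of 7 of the 10 probes are shown 5′ to 3′ so that the target of each value can be looked up. Coordinates are those of the whole probe on GRCh37, and the capitals mark AATAAA, the polyadenylation signal, searched on the probe strand and present in 7.88% of all probes.

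ATP6V1C2 at chr2:10924242-10924301 (+): ggttaaaaggccactggtagagtcatctga
ATP6V1E1 at chr22:18080994-18081053 (-): aaattgccaccaaaaacgatgttgatgtcc
ATP6V1E2, RefSeq probe, at chr2:46739134-46739193 (-): gggaagtgaagctagtgttgaaccactaaa
ATP6V1E2, FLJ41757 probe, at chr2:46761805-46761864 (-): gcctcaaaaagaggaagttcatccgctact
ATP6V1G1 at chr9:117360145-117360204 (+): tctagcttttttgtacagacttagaaatta
ATP6V1G2 at chr6:31512273-31512332 (-): gacaccttactttcccattgtaacAATAAA
ATP6V1G3 at chr1:198492563-198492622 (-): atgaaccagctcttgagcatggtctgtgac

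Over the 7 pairs of probes of paralogous genes, the longest run of letters that a pair shared was 4 to 8 of 60 bases. These probes need not lie at matching places of their transcripts, and both probes of ATP6V1C1 shared a run of 5 and both of ATP6V1E2 a run of 6. No probe was compared with the transcript of a paralog, so whether a probe also binds it was not tested. Whether a probe lies in coding or untranslated sequence was not determined here. The GC content of the 10 probes was 35% to 43.3%, and the median of all probes on the array was 43.3%.

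The scanner software flags a spot as well above background from its signal and that of its surroundings. A gene was called detected where a single probe or more carried this flag on each of the 4 arrays. By this rule 7 of the 8 genes were detected, against 54.2% of all gene names on the array. Of the 10 probes, 9 carried the flag on every array. The exception was ATP6V1G3, which carried it on replicate 2 alone. The flag was also set on all arrays for 11 of 19 markers of other cell types (neurons, kidney intercalated cells, testis, immune cells, fibroblasts and endothelium). These were SNAP25, RBFOX3 and GAD1 of 4 neuronal markers, SLC4A1 of 3 intercalated cell markers, PRM1 and ACR of 3 testis markers, PTPRC, CD3E and CD14 of 4 immune markers, COL1A1 of 3 fibroblast markers and VWF of 2 endothelial markers. SYP, ACRV1, COL1A2 and PECAM1 carried it on no array. At their brightest detected probe, the 11 flagged markers had background-subtracted signals of 34.6 to 1312, as medians over the arrays. The signals of ATP6V1C2, ATP6V1G2 and ATP6V1H given below lie within this range. So do those of both ATP6V1E2 probes, except 1318 at its RefSeq probe on replicate 3. Of 10 markers of colon epithelium 9 were detected, among them EPCAM, CDH1 and CDX2, and VIL1 was on no array. The labels name HCT116 cells alone and no mixture of cell types. What part other cells or binding by other transcripts had in the members' signals was not tested.

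**Figure D1:**
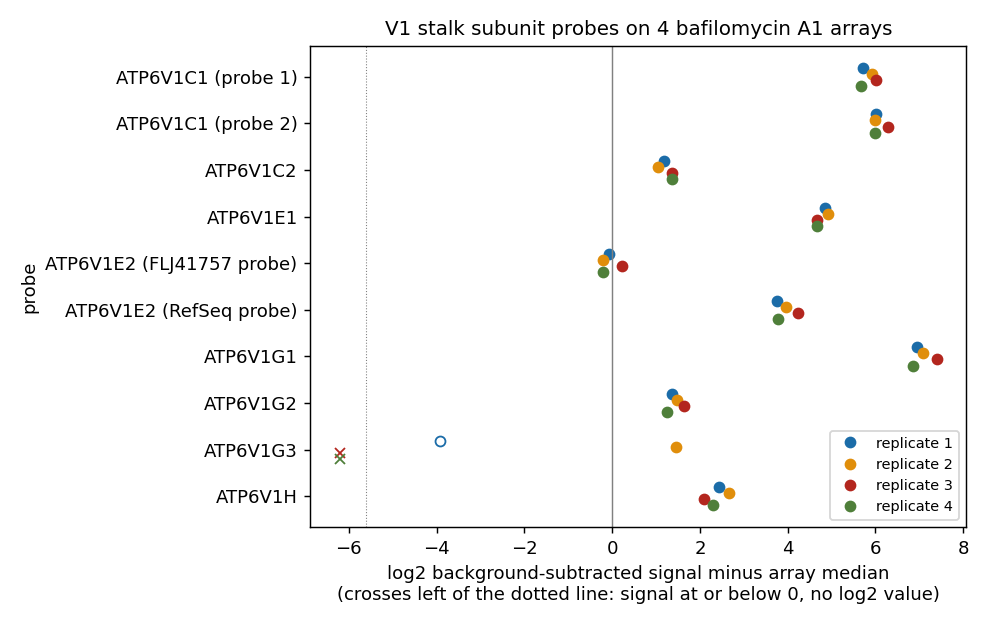
Normalized signal of each probe (x axis, log2 of the background-subtracted signal minus the median of the array) for the 10 probes of the stalk genes (y axis), 1 point per array. Filled points are well above background, the open point is not, and crosses are signals at or below 0. Positions of different probes are not comparable. 9 probes span at most 1.50-fold between arrays, and ATP6V1G3 has a flagged value on replicate 2 only.

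For subunit C, ATP6V1C1 had background-subtracted signals of 4070, 4241, 4545 and 3251 at its first probe and 4968, 4446, 5448 and 4060 at its second on replicates 1 to 4. After log2 transformation and subtraction of the median of the array, the median over both probes was 5.86, 5.95, 6.15 and 5.84, a mean of 5.95 ± 0.14 (SD, n = 4). Both probes were brightest on replicate 3, and they lay 3751 bases apart. The first minus the second was -0.23 on the log2 scale on average, with an SD over the arrays of 0.11 beside SDs of 0.16 and 0.14 of the probes themselves.

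ATP6V1C2, the paralog of restricted expression, had signals of 176, 146, 182 and 163. Its normalized level was 1.19, 1.05, 1.37 and 1.36, with a mean of 1.24 ± 0.15 (SD, n = 4). The values on replicates 3 and 4 were nearly equal and that on replicate 2 was the lowest. The difference between both paralogs, each centred on its own mean, spanned 1.34-fold over the arrays, and no order of the paralogs was read from the levels of different probes. In the gene table ATP6V1C2 overlaps PDIA6, and whether its probe also read that gene was not tested.

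For subunit E, ATP6V1E1 had signals of 2227, 2108, 1788 and 1617. The normalized levels were 4.85, 4.91, 4.67 and 4.67, with a mean of 4.77 ± 0.12 (SD, n = 4). Replicates 1 and 2 were higher than replicates 3 and 4. On replicate 3 the software marked the local background of this spot as an outlier, and with such spots left out ATP6V1E1 had a value on 3 arrays and 6 members were detected.

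ATP6V1E2 is named by 2 probes. The probe listed for the RefSeq transcript gave 1047, 1089, 1318 and 875, whereas the other, listed for the predicted transcript FLJ41757 and 22611 bases away, gave 74.1, 61.1, 82.4 and 55.1. On the log2 scale the FLJ41757 probe minus the RefSeq probe was -3.99 on average with an SD of 0.14, and both were brightest on replicate 3. The median over probes, 1.94 ± 0.20 (SD, n = 4), is the midpoint of both. How far this offset belongs to the probes or to their transcripts was not tested. From the RefSeq probe alone the level of ATP6V1E2 was 3.93 ± 0.22 (SD, n = 4), a choice made after the values were seen. In the gene table this gene overlaps RHOQ, and whether a probe also read that gene was not tested.

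For subunit G, ATP6V1G1 had signals of 9456, 9538, 11797 and 7398. The normalized levels were 6.94, 7.09, 7.39 and 6.87, with a mean of 7.07 ± 0.23 (SD, n = 4). Replicate 3 was the highest and replicate 4 the lowest, and they lay 1.44-fold apart.

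ATP6V1G2 had signals of 199, 197, 217 and 151. Its normalized levels were 1.37, 1.49, 1.63 and 1.25, with a mean of 1.43 ± 0.16 (SD, n = 4) and a span of 1.30-fold. As in ATP6V1G1, replicate 3 was the highest and replicate 4 the lowest. Each centred on its own mean, ATP6V1G1 and ATP6V1G2 differed by an SD of 0.087 over the arrays, a span of 1.15-fold. This was the closest of 6 pairs picked by name, which did not cover all pairs of members. Outside these 6, ATP6V1C1 and ATP6V1G2 lay closer. Their centred values on replicates 1 to 4 were -0.087, 0.001, 0.196 and -0.110 beside -0.066, 0.053, 0.194 and -0.180. Closeness was thus not particular to the G paralogs. The neighbouring gene DDX39B forms a readthrough transcript with ATP6V1G2 in the gene table, and whether the probe read it was not tested.

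ATP6V1G3 was the paralog that was not detected. Its signal was 5.13, 192, -2.89 and -4.40 on replicates 1 to 4, so that replicate 2 stood far above the others. The software's error was 84.6% of the signal on replicate 1 and 10.2% on replicate 2. The signals on replicates 3 and 4 lie below background and have no log2 value, and those on replicates 1 and 2 gave -3.91 and 1.45. Well above background on exactly 1 array were 5.41% of all probes, 2737 in number. Of these, 647 were bright on replicate 2, and 24 of the others reached the signal of ATP6V1G3 there. The mean over the pixels of the spot on replicate 2 was 247, the median 205 and the SD 108.

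The spots around ATP6V1G3 were also brighter on replicate 2. Over the 22 non-control spots within 2 rows and columns, the log2 ratio of the mean pixel signal on replicate 2 to the median of the other arrays had a median of 0.40 and ranged from -0.09 to 2.50, against a median of 0.03 over all non-control spots. The ratio of ATP6V1G3 itself was 2.36, which 0.0545% of all spots reached. Of its 22 neighbours, 5 had a ratio above 1 and 6 were well above background on replicate 2 alone. The part of this neighbourhood in the signal was not tested. The probe shared up to 16 bases with a probe of another gene.

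**Figure D2:**
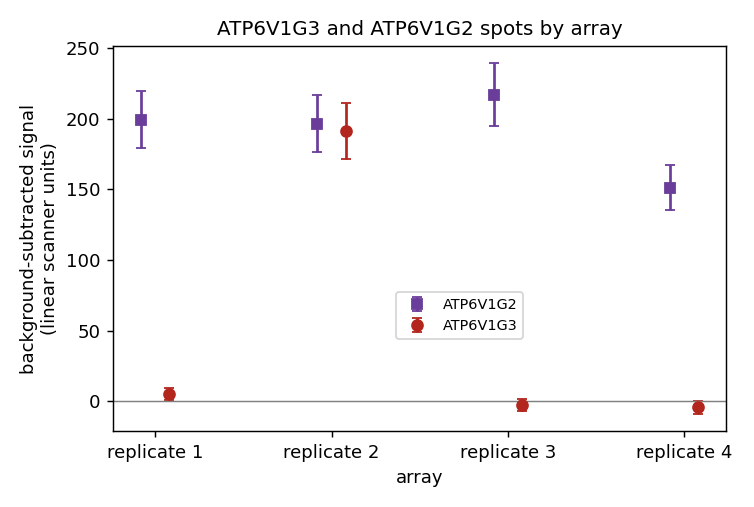
Background-subtracted signal in linear scanner units (y axis) of the ATP6V1G2 and ATP6V1G3 spots on each array (x axis), with bars for the error that the scanner software gives. ATP6V1G2 lies between 151 and 217 on all arrays, and ATP6V1G3 reaches 192 on replicate 2 and between -4.40 and 5.13 elsewhere.

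Subunit H has a single gene. ATP6V1H had signals of 420, 446, 298 and 314. Its normalized levels were 2.44, 2.67, 2.08 and 2.31, with a mean of 2.37 ± 0.25 (SD, n = 4). It spanned 1.50-fold between replicate 2 and replicate 3, and was lower on replicates 3 and 4 than on 1 and 2. Each centred on its own mean, the log2 difference of ATP6V1C1 and ATP6V1H ran from -0.29 on replicate 2 to 0.49 on replicate 3, a span of 1.72-fold.

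The spread between replicates was next set against that of all genes, since a comparison with these arrays would carry it. The arrays shared 1 slide and 1 scan, so variation between slides or scans is not part of this spread. Of the 7 detected members, ATP6V1G1 and ATP6V1H spanned more than 1.4-fold, which is 28.6% of them against 45.6% of all detected genes. The study's methods use this fold as a cut-off for ratios of aneuploid to diploid cells, from medians over replicates. A span from the lowest to the highest single array is another measure, so passing 1.4-fold here is not a call by that cut-off. The median SD of the members was 0.16 and that of all detected genes 0.21. The lowest SD, that of ATP6V1E1, was above that of 17.7% of detected genes and the highest, that of ATP6V1H, above that of 62.4%. Which member varied least or most changed with the processing. With normexp the SDs ran from 0.027 (ATP6V1C1) to 0.209 (ATP6V1H), with 0.181 for ATP6V1E1. With centring on the median over all probes they ran from 0.067 (ATP6V1E1) to 0.242 (ATP6V1G1). Without replicate 3, no member (0 of 7) spanned more than 1.4-fold, and 21.6% of the genes detected on the remaining arrays did. It was 1 member without replicate 2 (ATP6V1G1), against 38.2% of all detected genes, and 1 without replicate 4 (ATP6V1H), against 38.7%. With normexp background correction and quantile normalization the only one was ATP6V1H, against 14.2% of all detected genes. With each array centred on the median over all probes, signals at or below 0 included, there were 4 (ATP6V1C2, ATP6V1E2, ATP6V1G1 and ATP6V1H), against 49.8%.

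**Figure D3:**
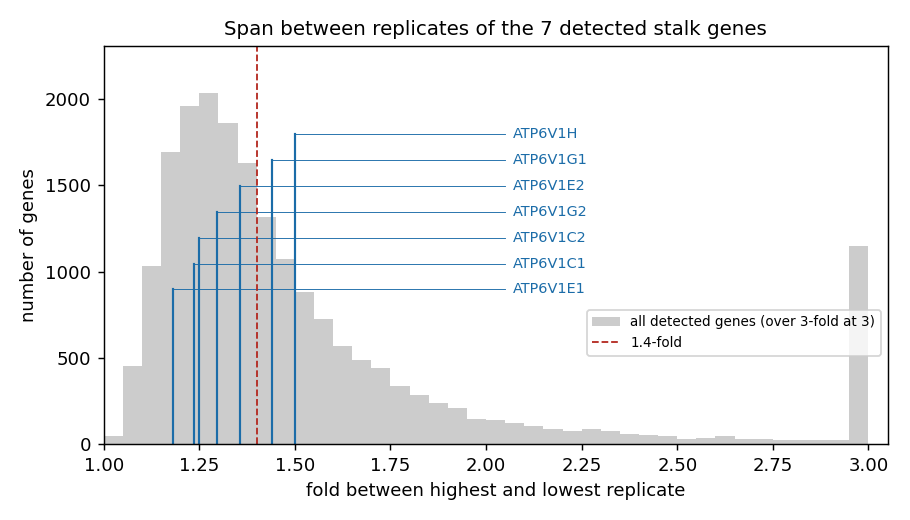
Fold between the highest and the lowest replicate (x axis) for all detected genes (grey histogram, y axis in genes, values over 3-fold drawn at 3) and for the 7 detected stalk genes (blue lines, whose height has no meaning). The dashed line marks 1.4-fold. ATP6V1G1 at 1.44-fold and ATP6V1H at 1.50-fold lie to its right and the other 5 to its left.

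ATP6V1C1, ATP6V1C2, ATP6V1E2, ATP6V1G1 and ATP6V1G2 were highest on replicate 3, which was 5 of 7 members, against 48.4% of all detected genes. ATP6V1E1 and ATP6V1H were lowest there, 2 of 7 against 23.1%, a share near that of all genes. ATP6V1E1 had nearly the same value on replicate 4, and its spot on replicate 3 is the one with an outlying local background. The difference of ATP6V1E1 and ATP6V1E2, each centred, spanned 1.51-fold, whereas that of ATP6V1E1 and ATP6V1H spanned 1.27-fold. With the processed signal, with normexp and with centring on the median over all probes, ATP6V1C2 was no longer highest on replicate 3 and the count was 4, against 39.7%, 38.3% and 51.0% of all detected genes.

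**Figure D4:**
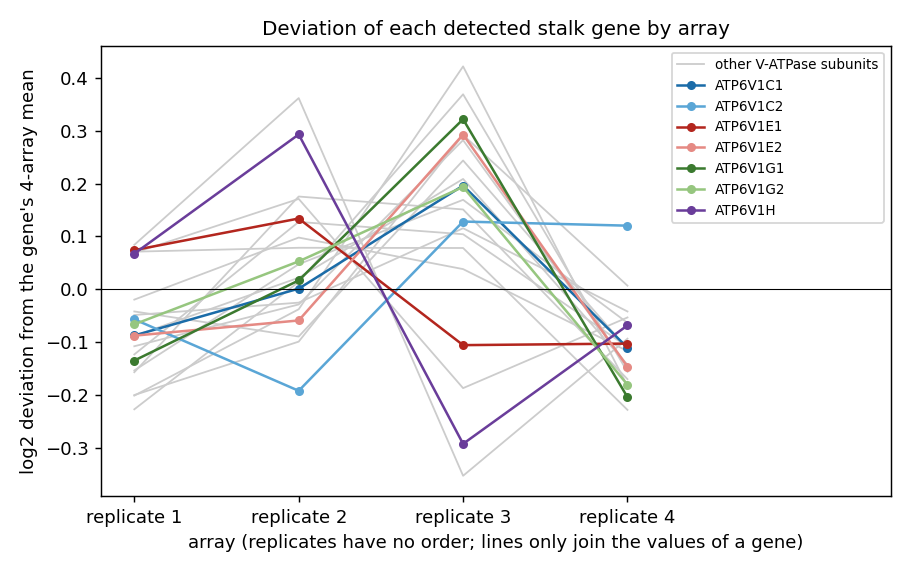
Log2 deviation of each detected stalk gene from its own 4-array mean (y axis) on each array (x axis), with the 14 detected other V-ATPase subunits in grey. On replicate 3, 5 stalk genes lie above 0 and ATP6V1E1 and ATP6V1H below it.

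The other genes of the pump were counted by the same rules. Of 17 other V-ATPase subunits, 16 were found by name (ATP6V0A2 was not) and 14 passed the detection rule. The median of their SDs was 0.16. Of these 14, 4 spanned more than 1.4-fold, 8 were highest on replicate 3 and 2 were lowest there. ATP6V1B1, the B subunit of kidney and inner ear, and ATP6V0D2, the d subunit of osteoclasts and kidney, did not rise well above background on any array. Of 11 assembly and association factors, 10 were detected, 7 spanned more than 1.4-fold and the median SD was 0.24. Of these 10, 8 were highest on replicate 3 and 2 were lowest there. Beside these counts, 54.2% of all gene names were detected. Of all detected genes, 45.6% spanned more than 1.4-fold, 48.4% were highest on replicate 3 and 23.1% were lowest there, with a median SD of 0.21. The mean over the detected stalk members deviated by -0.04, 0.04, 0.11 and -0.10 on replicates 1 to 4, an SD of 0.089, beside 0.12 for the other subunits and 0.065 for all detected genes. The SD was 0.031 with the processed signal and 0.011 with normexp. Among the detected genes of both lists, 3 were nearest to the mean over the members by root mean square difference over 4 arrays. They were TMEM199, a factor of pump assembly (0.033), ATP6V0C, the proton-carrying subunit c (0.042), and ATP6V0E1, the small V0 subunit e (0.048). These 3 also had the lowest SDs of the detected genes in both lists, 0.072, 0.078 and 0.091. Since the mean over the members varied little, this measure favours genes that vary little. Nearness by it does not show that a gene follows the members. Genes outside both lists were not compared singly. The mean over all detected genes deviated by -0.02, 0.04, 0.06 and -0.08 on replicates 1 to 4, a course similar to that of the members.

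Genes of the pump are known as targets of TFEB, a transcription factor of lysosome biogenesis that binds GTCACGTG around the core CACGTG. RefSeq promoter sequence on GRCh38.p14 was held for 5 of the 8 members (ATP6V1C2, ATP6V1E1, ATP6V1G1, ATP6V1G2 and ATP6V1G3) in 8 entries. The 250 bases before each start were searched for both words on both strands, the first containing the second. Of the 5, ATP6V1G1 alone held GTCACGTG, which 2.16% of 35116 entries hold, and none of the other 4 held CACGTG, which 6.34% hold. The region at chr9:114587519-114587768 (+) is printed because it holds that word, in capitals, whose last base lies 52 bases before the start.

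ATP6V1G1 promoter: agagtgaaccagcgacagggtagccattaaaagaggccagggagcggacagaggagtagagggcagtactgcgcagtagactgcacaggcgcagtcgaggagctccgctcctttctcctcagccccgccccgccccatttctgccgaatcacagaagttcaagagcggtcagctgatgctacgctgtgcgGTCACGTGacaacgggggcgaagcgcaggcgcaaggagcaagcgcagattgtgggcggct

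The paralogs also differed in their number of CG dinucleotides in these 250 bases, which was 31 in ATP6V1C2, 19 in ATP6V1G1, 15 and 13 in the 2 entries of ATP6V1E1, 5 and 6 in those of ATP6V1G2 and 0 and 1 in those of ATP6V1G3, with a median of 11 over all entries. A match is a description of letters, and neither binding nor methylation was measured.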

How the data were processed

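Gene expression was measured on 4 Agilent arrays of bafilomycin A1-treated cells, all on 1 slide and from 1 scan, so batches could not be tested. The authors deposited the scanner output of Feature Extraction 10.7.3.1: linear intensity per spot, background-subtracted by the software and not normalized between arrays. The deposited files also hold, for each spot, the p-value of its difference from background, and other values, namely flags for spots well above background, outlying or saturated (0 were saturated).

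Following the study's methods, background-subtracted signals were log2 transformed, centred on the median of each array over non-control probes, and summarised per gene by the median of its probes. Control spots and outlying features (275 to 410 per array) were left out, and signals at or below 0 (14.8% to 17.4% of spots) had no value on that array. On each array 55.6% to 60.4% of spots were well above background. Spearman correlations between arrays were 0.977 to 0.983 over 36562 probes, which are not replicates. A probe counted as above background with more than 50% of its spots flagged. Levels of different probes are not comparable.

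No groups were compared, since the untreated samples were not analysed here. Values are means ± SD, and Dixon's ratio (critical value 0.829 for 4 values) marked a sample that lies apart. Members were chosen by name, and they, the gene lists and the markers were chosen with earlier results of these data known. Named were all members, the other pump genes on no array, and the 3 nearest to the mean of the members. Probe sequences were to be shown only where they translate into the RefSeq protein. No protein table was used here, so the last 30 bases of probes were shown instead, without ATP6V1C1 and ATP6V1H. Alternatives were the processed signal minus the 75th percentile, normexp with an offset of 50 and quantile normalization (limma 3.58.1), outlying spots kept, other probe and detection rules, centring on the median over all probes, and each array left out. Chosen after seeing the data were the count of members highest on replicate 3, the RefSeq probe of ATP6V1E2 alone, leaving out spots with an outlying local background, and the promoter and probe features. The SD, the share over 1.4-fold and Dixon's ratio were tested on simulated data. Python 3.11.15, numpy 2.4.6, pandas 2.3.3, scipy 1.17.1, matplotlib 3.10.9 and R 4.3.3 were used.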

Additional observations from a re-analysis of the deposited data

Results flagged for a closer look

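Of 16 values of the named genes tested over the 4 arrays, 3 had a sample far from the others. Chance marks about 1 in 20 groups of independent, normally distributed values, and 7.94% of all detected genes were marked. The signal of ATP6V1G3 on replicate 2, 192, lay apart from the other arrays on the linear scale, not the log2 scale. The normalized level of the second ATP6V1C1 probe on replicate 3, 6.28, lay above the other arrays, as did that of ATP6V0C on replicate 3, 10.19. Of the detected genes marked, 62.1% lay apart on replicate 3, so both levels marked there need not be separate events.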

How the results depend on the processing

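The number of detected members and of probes well above background kept within 1.5 times of the reported counts in the alternatives run. The number of detected members spanning more than 1.4-fold, 2 as reported, was 1 with normexp and quantile normalization, 4 with centring on the median over all probes, and 0 to 2 with each array left out. It was 2 with the processed signal, but these were ATP6V1C2 and ATP6V1H. The median SD over members, 0.16 as reported, was 0.11 with normexp, 0.21 with that centring, and 0.117 to 0.189 with each array left out. The SD of the mean over members, 0.089 as reported, was 0.031 with the processed signal, 0.011 with normexp and 0.067 to 0.105 with each array left out. The levels of 7 of 7 detected members moved with the processed signal and with centring on the median over all probes. With normexp 4 of 7 moved, and 0 moved with each array left out. ATP6V1C2, 1.24 as reported, was -1.20 with the processed signal and 2.33 with that centring. ATP6V1G2, 1.43 as reported, was -1.19 and 2.52. The sign and size of a printed level thus hold for the reported centring only. The level of ATP6V1E2 moved to 3.93 with the RefSeq probe alone. The causes were not tested, except that fewer arrays can only lower a span by construction. No paired analysis was possible because only 1 of the groups was analysed here. With 1 spot per probe, the error of a single spot could not be measured within an array. The software sets it to at least 10.0% of the signal, so differences of that size between single spots lie within its stated error.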
